A study of Mus musculus with 74 samples.

Results

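The genes described here are 10 genes of cytotoxic granules and killer-cell receptors, chosen by name: the granzymes Gzma, Gzmb, Gzmc and Gzmk, the pore former Prf1, the granule genes Nkg7 and Ctsw, and the lectin-like receptors Klrd1, Klrc1 and Klrk1. Each gene is represented by its probe with the highest mean over all arrays. Of the 10 genes, 9 had a probe assigned to a single gene symbol, and Gzma was not analysed here. On the array, 19031 genes had such a probe. Of these, 13817 exceeded the low-signal filter, a mean above 6.77 on the log2 intensity scale in at least 1 condition, and these were tested. Among the members, Gzmk, Prf1, Nkg7, Ctsw, Klrd1 and Klrk1 were above the filter (6 genes), while Gzmb, Gzmc and Klrc1 were not (3 genes).

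Cytotoxic lymphocytes kill by releasing granules whose perforin opens the membrane of the target cell to granzymes, a family of serine proteases that start cell death. Lectin-like receptors of the NK gene complex set the threshold of this release: CD94, the product of Klrd1, pairs with an NKG2 chain such as that of Klrc1 and binds a non-classical MHC molecule, and NKG2D, the product of Klrk1, binds stress-induced ligands. These genes are best known from NK cells and CD8+ T cells, but CD4+ T cells stimulated under Th1 conditions can also express some of them.

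Expression was profiled with Illumina Mouse Sentrix-6 bead arrays. Naive CD4+ CD62Lhi T cells were taken at 0 h, followed by Th0, Th1, Th2 and Th1/2 hybrid cells (ThMix in the labels) at 3, 6, 12, 24, 35, 48, 73, 96 and 120 h, with 1 array per condition in each of 2 experiments and 74 arrays in all. The cells came from spleens and lymph nodes of Balb/c mice 5 to 8 weeks old, whose organs were pooled before a 2-step magnetic sort. All cultures received plate-bound anti-CD3 and soluble anti-CD28. Th1 cultures also received IL-12 and anti-IL-4, and Th1/2 cultures received IL-12 and IL-4. Th2 cultures received IL-4 with antibodies to IFN-γ and IL-12, and Th0 cultures received antibodies to IL-4, IL-12 and IFN-γ. Anti-IFN-γ was therefore present in Th0 and Th2 cultures and absent from Th1 and Th1/2 cultures, so its part in a difference between these pairs of cultures cannot be told apart from that of IL-12. The labels give activation for the naive cells as well, although their time is 0 h.

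The 4 late time points of 48, 73, 96 and 120 h were averaged to compare cell types, which gives 8 late arrays per cell type from 2 experiments. Time points of an experiment are not separate cultures, and p-values over 8 arrays may be too small for that reason. All 7 CD4+ T cell markers on the array were above the filter. Of the CD8+ T cell markers, Cd8a lay between 6.10 and 6.72 on all 74 arrays, whereas Cd8b1 lay between 11.17 and 12.88 and passed no late test between cell types (limma, lowest adjusted p = 0.403). Of 10 NK cell genes, 4 were above the filter. The linear intensities of all 10 were summed, with the background signal of those below the filter included. The sum was 1120 to 1310 in naive cells. In late cells it was 920 to 986 (Th0), 945 to 1010 (Th1), 965 to 1040 (Th1/2) and 943 to 998 (Th2). Ncr1, which defines NK cells, lay between 6.17 and 6.54 on every array. The sum of 7 myeloid genes was 3670 to 5910 in naive cells, against 610 to 685 in late Th1 and 626 to 2470 in late Th2 cells. For 4 B cell genes it was 997 to 1340 in naive and 458 to 532 in late Th1 cells. The part of other cells in the falls of members from 0 h was not tested. A pair of arrays stood apart from the other cell types of their time point and experiment, Th0 at 96 h in experiment 2 with 720 genes at least 2-fold away and Th1/2 at 12 h in experiment 1 with 405, against a median of 87.5. Without both arrays no late call of a member changed.

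The promoters of Nkg7, Klrk1 and Prf1 are shown because their late levels differed in pattern. Nkg7 and Klrk1 were higher in late Th1 than in late Th2 cells. The brighter Prf1 probe passed no test between cell types in the main fit, which has no replicate block. A RefSeq promoter entry was matched for 8 of the 10 members. Each window holds 250 bases before the transcription start and 50 bases from it, read 5′ to 3′ on the strand of the gene in build GRCm38.p6. Capitals mark matches, on either strand, to 5 motifs, none of which overlapped another in these windows. The T-box motif was searched as AGGTGT, the letters bound by T-bet and Eomes. The GATA motif was searched as AGATAA, which GATA3 can bind. The RUNX motif was searched as TGTGGT, the core read by Runx3 and its relatives. The STAT motif was searched as TTCNNNGAA, the palindrome bound by activated STAT proteins. The AP-1 motif was searched as TGANTCA, which Fos and Jun proteins bind. The Nkg7 window is chr7:43436888-43437187 on the plus strand, the Klrk1 window is chr6:129623815-129624114 on the minus strand and the Prf1 window is chr10:61297586-61297885 on the plus strand.
Nkg7: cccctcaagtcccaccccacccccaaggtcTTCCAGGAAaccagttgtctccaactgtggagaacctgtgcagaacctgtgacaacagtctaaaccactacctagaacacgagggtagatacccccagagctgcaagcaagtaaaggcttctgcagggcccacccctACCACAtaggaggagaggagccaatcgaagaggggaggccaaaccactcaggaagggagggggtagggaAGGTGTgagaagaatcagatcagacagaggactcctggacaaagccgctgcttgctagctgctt
Klrk1: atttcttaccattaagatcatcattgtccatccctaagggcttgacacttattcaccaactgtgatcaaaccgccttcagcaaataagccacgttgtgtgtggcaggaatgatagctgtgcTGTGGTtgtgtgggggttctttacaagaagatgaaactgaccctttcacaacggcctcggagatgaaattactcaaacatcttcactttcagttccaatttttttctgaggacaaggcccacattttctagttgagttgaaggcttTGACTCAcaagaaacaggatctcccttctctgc
Prf1: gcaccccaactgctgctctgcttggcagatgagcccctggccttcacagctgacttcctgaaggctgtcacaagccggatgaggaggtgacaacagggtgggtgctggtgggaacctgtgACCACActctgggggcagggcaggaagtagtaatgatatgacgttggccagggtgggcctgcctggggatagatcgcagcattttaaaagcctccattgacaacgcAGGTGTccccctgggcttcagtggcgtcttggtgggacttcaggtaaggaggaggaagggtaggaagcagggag
In the Nkg7 window the capitals are, from left to right, a STAT match, a RUNX match on the opposite strand and a T-box match that starts 14 bases before the transcription start. The Klrk1 window held a RUNX and an AP-1 match, and the Prf1 window held a RUNX match on the opposite strand and a T-box match that starts 24 bases before the transcription start. Positions count from the start of the promoter entry. The gene entries of Prf1 and Klrk1 begin further upstream, at 61297751 and 129623903, inside these windows. Of 32851 promoters of the same length, 13.7% held the T-box letters, 11.2% the GATA letters, 16.8% the RUNX letters, 8.3% the STAT letters and 7.81% the AP-1 letters. The T-box letters were found in the windows of Gzma, Gzmc, Gzmk, Prf1 and Nkg7, and the GATA letters in none of the 8 windows. The RUNX letters were found in every window but that of Gzmk. The STAT letters were in those of Gzmb and Nkg7, and the AP-1 letters in those of Gzmb and Klrk1. A match to letters this short is a description of the window and not a binding site.

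Of the lytic granule contents, Prf1 read high on its brighter probe before stimulation and fell in all 4 cell types. The brighter Prf1 probe read 12.96 and 12.87 in the naive cells of experiments 1 and 2. At 24 h Th0 cells read 10.34 and 10.58, Th1 cells 9.69 and 10.55, Th1/2 cells 10.32 and 10.38 and Th2 cells 10.22 and 10.54. All 8 arrays at 24 h were below both naive arrays, and those of the 4 cell types overlapped. Against 0 h, Prf1 was lower at 6 of 9 time points in each cell type, where 29% to 45.5% of all tested genes were called against 0 h at single time points. Its largest fall, that of Th1 cells after 24 h, reached −2.79 (log2). The late lowest, median and highest values were 10.14, 10.79 and 12.86 in Th0 cells, 10.72, 11.19 and 12.74 in Th1 cells, 10.54, 11.17 and 13.44 in Th1/2 cells and 10.31, 10.79 and 13.30 in Th2 cells. The late groups overlapped almost completely, and no difference between cell types passed the limma test at any single time point or over the late window. Late Th1 and Th2 cells differed by 0.10 (SE 0.23, 95% interval −0.37 to 0.58, adjusted p = 0.856). That between Th1/2 and Th0 cells was 0.38 (adjusted p = 0.282), and that between Th1 and Th0 cells was 0.32 (adjusted p = 0.61). With experiment by time point as a replicate block, which removes the shift shared by the cultures of an experiment, these 2 differences had adjusted p = 0.00217 and adjusted p = 0.0263.

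The 2 experiments parted for Prf1 at 120 h. Experiment 1 read 12.86 (Th0), 12.74 (Th1), 13.44 (Th1/2) and 13.30 (Th2), and experiment 2 read 10.91, 11.36, 11.53 and 11.70 in the same order. In all 4 cell types the array of experiment 1 was higher, by 1.38 to 1.95 on the log2 scale. From 24 and 35 h to 73, 96 and 120 h, Prf1 rose in Th1 cells by 0.86 (adjusted p = 0.0169), in Th1/2 cells by 1.00 (adjusted p = 0.0054) and in Th2 cells by 0.91 (adjusted p = 0.0114). In Th0 cells the same difference was 0.71 (adjusted p = 0.0545). The return of the Prf1 signal at the end of the culture thus rested largely on experiment 1, where these rises were 1.11 to 1.36, against 0.31 to 0.64 in experiment 2.

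A second, dimmer Prf1 probe gave another picture between cell types. It read 8.50 and 8.04 in naive cells, and its late arrays lay between 6.78 and 7.26 in Th1 cells and between 6.46 and 6.79 in Th2 cells, close to the filter. On this probe late Th1 cells exceeded Th2 cells by 0.35 (limma adjusted p = 7.43e-05), and Th1/2 cells were below Th1 cells, by −0.27 (adjusted p = 0.00317). Both probes fell after stimulation, and at 120 h the dimmer one lay between 6.47 and 7.26, below its naive arrays. Probe sequences were not used here, so the part of the transcript each probe reads, and any binding of it to related genes, was not tested.

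The member granzymes with a probe were at or near the level of unexpressed genes. Gzmb lay between 6.03 and 6.59 and Gzmc between 5.91 and 6.41 on all 74 arrays, below the filter in every condition, so that neither probe gave a signal above that of unexpressed genes. Gzmk passed the filter narrowly, with 6.86 and 7.04 in naive cells and 7.01 and 7.05 in Th1/2 cells at 3 h. Its late medians were 6.60 (Th0), 6.72 (Th1), 6.69 (Th1/2) and 6.67 (Th2). The 4 late groups overlapped, and Th1 cells differed from Th2 cells by 0.030 (95% interval −0.078 to 0.14, adjusted p = 0.806). Against 0 h, Gzmk was lower at 4 to 6 of 9 time points by cell type. Of the other granzymes, Gzmd, Gzme, Gzmf, Gzmg, Gzmm and Gzmn, 3 of 6 were above the filter, and none passed the test between late Th1 and Th2 cells. Against late Th0 cells, 1 of these 3 was called lower in each of Th1, Th2 and Th1/2 cells. The shares of all genes called lower were 2.86%, 14% and 13.8% in that order.

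Nkg7, a membrane protein of cytotoxic granules, showed the largest difference between cell types of the members. It read 8.69 and 8.77 in naive cells, and all 4 cell types were lower at 3 h, for example 7.83 and 7.89 in Th1 and 7.60 and 7.62 in Th2 cells. In Th1 cells it then read 10.74 and 10.85 at 48 h, 9.45 and 10.15 at 73 h, 10.54 and 10.84 at 96 h and 10.92 and 11.42 at 120 h. In Th2 cells it read 7.08 and 7.62, 6.86 and 7.05, 6.72 and 6.87, and 6.87 and 7.06 at the same times. All late Th1 arrays were above the naive arrays and all late Th2 arrays were below them. The late lowest, median and highest values in Th0 cells were 8.16, 8.79 and 10.38, and in Th1/2 cells they were 7.11, 7.55 and 8.21. The late Th1 and Th2 groups did not overlap, and Th1 cells were higher by 3.60 (SE 0.13, n = 8 and 8 arrays, limma adjusted p = 2.04e-24), a 12.1-fold difference. Against Th0 cells, Th1 cells were higher by 1.72 (adjusted p = 1.8e-13) and Th2 cells lower, by −1.87 (adjusted p = 2.8e-15). The Th0 groups overlapped the Th1 groups through the 48 h array of experiment 2, which read 10.38 in Th0 cells, while its partner in experiment 1 read 9.29.

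Ctsw encodes cathepsin W, a cysteine protease found in NK cells and CD8+ T cells. It fell in all 4 cell types and returned in Th1 cells. It read 11.17 and 10.97 in naive cells. In Th1 cells it read 7.67 and 7.58 at 12 h, 8.47 and 8.36 at 48 h, 9.35 and 9.29 at 73 h, 10.65 and 10.71 at 96 h and 11.33 and 11.58 at 120 h. The 120 h arrays of Th1 cells were above both naive arrays, but the difference from 0 h was 0.39 and did not pass the test (limma adjusted p = 0.293). In Th2 cells Ctsw read 6.94 and 7.25 at 48 h, 6.73 and 6.70 at 73 h, 7.13 and 7.08 at 96 h and 7.05 and 7.51 at 120 h, so no late Th2 array came near the naive level. Both Th2 arrays at 73 h lay below the filter, so the naive level was at least 19.7-fold higher. The late lowest, median and highest values were 7.16, 7.79 and 8.74 in Th0 cells and 7.38, 8.49 and 10.52 in Th1/2 cells. Late Th1 cells exceeded late Th2 cells by 2.92 (SE 0.13, adjusted p = 1.58e-21, 7.58-fold) without overlap, and late Th0 cells by 2.09 (adjusted p = 5.84e-16).

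**Figure D1:**
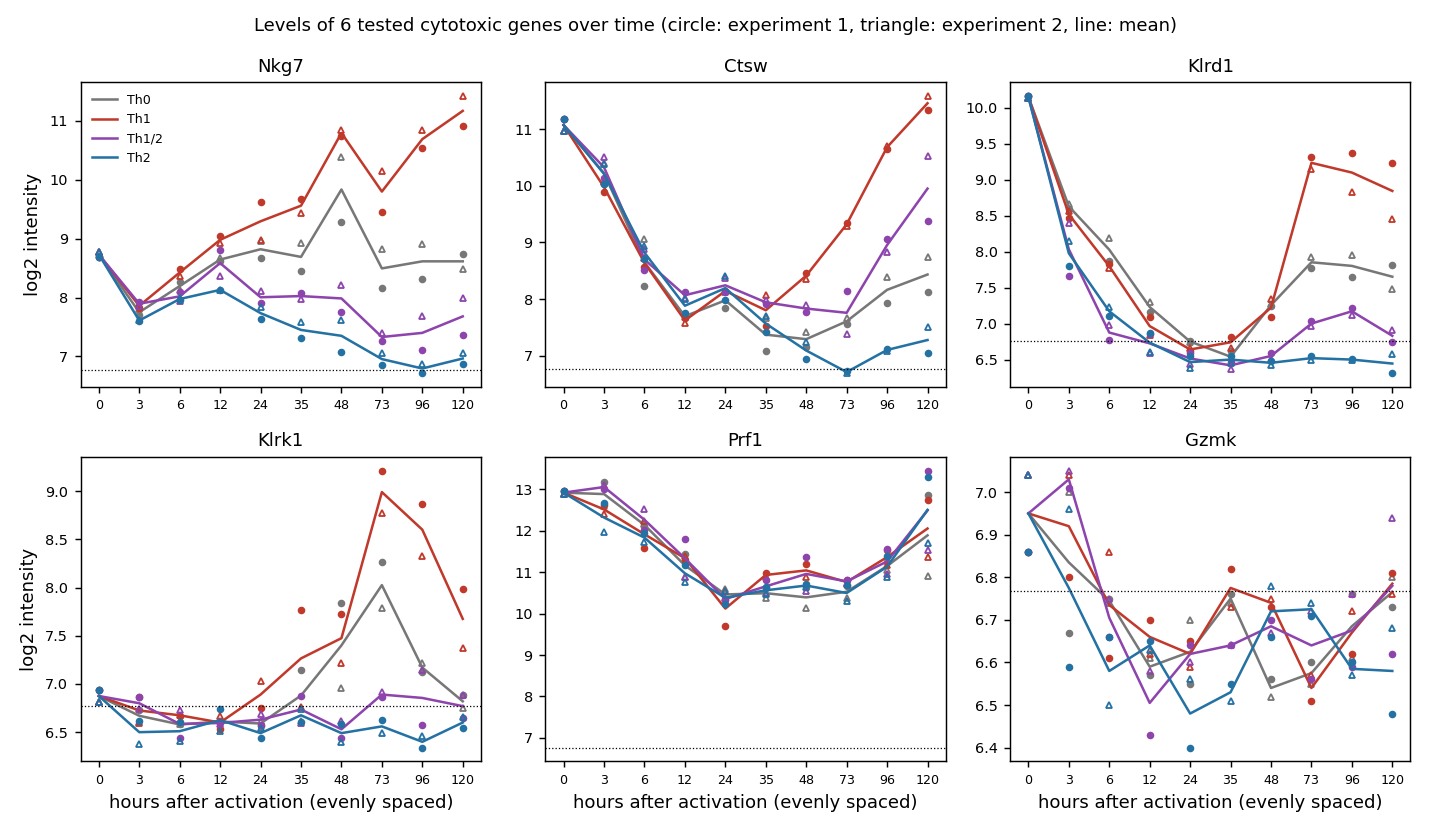
Log2 intensity (vertical axis) against hours after activation (horizontal axis) for Nkg7, Ctsw, Klrd1, Klrk1, Prf1 and Gzmk in Th0, Th1, Th1/2 and Th2 cells. Points are single arrays, lines join the means of the 2 experiments, and the dotted line is the low-signal filter at 6.77. Nkg7 in Th1 cells reached 10.92 and 11.42 at 120 h, Ctsw returned to 11.33 and 11.58 in Th1 cells, and the Prf1 courses of the 4 cell types overlap.

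Among the receptor genes, Klrd1 was high in the naive samples. After stimulation it fell to near the filter, and the part of other cells in this fall was not tested. It read 10.16 and 10.14 at 0 h, and at 35 h Th0 cells read 6.62 and 6.47, Th1 cells 6.82 and 6.67, Th1/2 cells 6.47 and 6.38 and Th2 cells 6.55 and 6.46. At 35 h all arrays of the 4 cell types were at or near the filter. In Th1 cells it was then 7.10 and 7.35 at 48 h, 9.32 and 9.15 at 73 h, 9.37 and 8.83 at 96 h and 9.23 and 8.46 at 120 h. In Th2 cells all 8 late arrays lay between 6.32 and 6.58, so that Klrd1 returned in part in Th1 cells and showed no return in Th2 cells. Th0 cells were between them, with a lowest, median and highest late value of 7.25, 7.72 and 7.96. As all late Th2 arrays lay below the filter, the Th1 level is given as at least 3.56-fold higher, the late Th1 mean over the filter (measured log2 difference 2.11, SE 0.09, adjusted p = 1.88e-22). Late Th1 cells were above Th0 cells by 0.96 (adjusted p = 6.15e-11). Against 0 h, Klrd1 was lower at all 9 time points in all 4 cell types, and in Th1 cells the smallest such fall was by 0.92, at 73 h.

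Klrk1 was near the filter in naive cells, at 6.94 and 6.81, and rose late in Th1 cells and, for a shorter time, in Th0 cells. In Th1 cells it read 7.73 and 7.22 at 48 h, 9.21 and 8.77 at 73 h, 8.87 and 8.33 at 96 h and 7.98 and 7.37 at 120 h. In Th0 cells it read 7.84 and 6.96, 8.26 and 7.79, 7.12 and 7.22, and 6.89 and 6.75 at these times. Both cell types were highest at 73 h and lower again at 120 h, and at 73 h both Th1 arrays were above both Th0 arrays. In Th2 cells the late arrays lay between 6.34 and 6.66, and in Th1/2 cells between 6.44 and 7.14. Against 0 h, Klrk1 was higher by 2.11 in Th1 cells (adjusted p = 9.91e-10) and by 1.14 in Th0 cells at 73 h, and it was not called at any time in Th1/2 or Th2 cells. Against late Th2 cells, whose arrays all lay below the filter, Th1 cells were at least 2.67-fold higher, by the same bound (measured log2 difference 1.67, SE 0.12, adjusted p = 5.37e-15). They exceeded late Th0 cells by 0.83 (adjusted p = 1.91e-06). With 1 late mean per cell type and experiment in place of 8 arrays, the latter difference had adjusted p = 0.194.

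Klrk1 had 4 probes, all above the filter. Their highest values on any array were 9.21, 7.60, 7.52 and 6.93, and for 3 of them that array was Th1 at 73 h in experiment 1. The remaining probe stayed between 6.29 and 6.93 over all 74 arrays. On the probe with the second-highest mean, the late difference between Th1/2 and Th0 cells was −0.077 (adjusted p = 0.461). Its late means were 7.10 (Th1), 6.87 (Th0) and 6.70 (Th2), against 8.19, 7.35 and 6.51 on the probe used. In the same order they were 7.02, 6.76 and 6.54 on the probe that reached 7.60, and 6.75, 6.75 and 6.67 on the one that reached 6.93. The other probes thus parted Th1 from Th2 cells less than the probe used. Klrc1, which encodes the NKG2A partner chain of CD94, lay between 6.24 and 6.78 on all arrays and below the filter in every condition mean, so that the Klrd1 signal came without a measurable Klrc1 signal on this array.

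**Figure D2:**
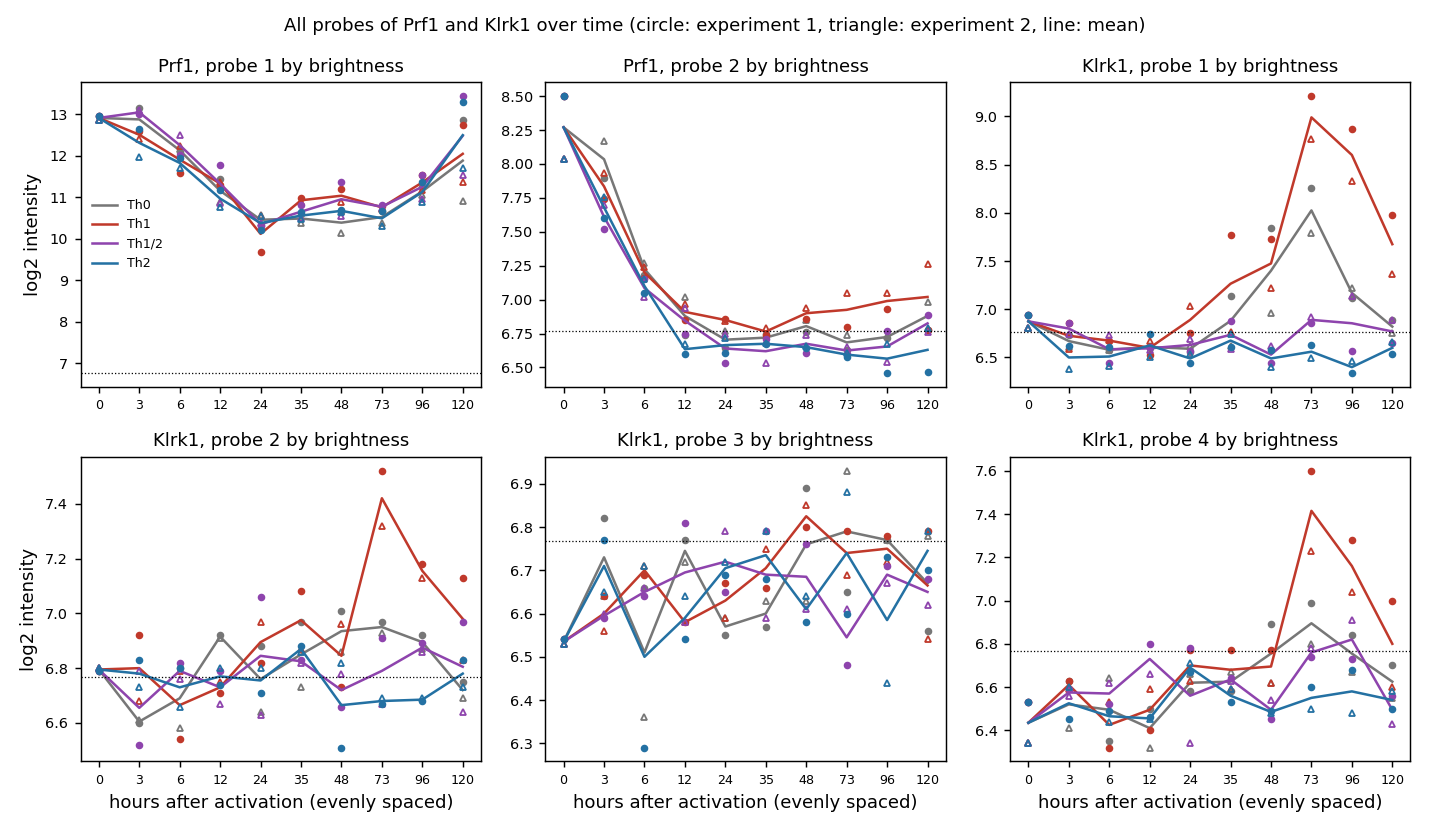
Log2 intensity of every probe of Prf1 (2 probes) and Klrk1 (4 probes) on the vertical axis against hours after activation on the horizontal axis, by cell type, with the low-signal filter as a dotted line. At 120 h the brighter Prf1 probe lies between 12.74 and 13.44 in experiment 1 and between 10.91 and 11.70 in experiment 2, against 12.96 and 12.87 in naive cells, and the dimmer one, which starts at 8.50 and 8.04, is at most 7.26.

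Over the late window, 4 of the 6 tested members (Nkg7, Ctsw, Klrd1 and Klrk1) were higher in Th1 than in Th2 cells and none was lower, where 10.5% of all 13817 tested genes were called higher and 9.97% lower. The median difference over the 6 members was 1.89, and over all tested genes 0.004. Because the cultures were measured in bulk, fewer cells that express a gene and less RNA per cell cannot be told apart. The same 4 members were higher in Th1 than in Th0 cells, as were 2.94% of all genes, and lower in Th2 than in Th0 cells, as were 14% of all genes. The falls in Th2 cells against Th0 cells were −1.87 for Nkg7, −1.16 for Klrd1 (adjusted p = 5.64e-14), −0.84 for Klrk1 (adjusted p = 3.78e-07) and −0.83 for Ctsw (adjusted p = 3.17e-06). With Th2 arrays below the filter, Th0 cells were higher by at least 0.88 for Klrd1 and at least 0.58 for Klrk1 on the log2 scale, by the same bound. The comparisons with Th0 cells share the Th0 arrays and those with Th1 cells share the Th1 arrays. Without a replicate block, Prf1 and Gzmk were not called in any of the 6 late comparisons.

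**Figure D3:**
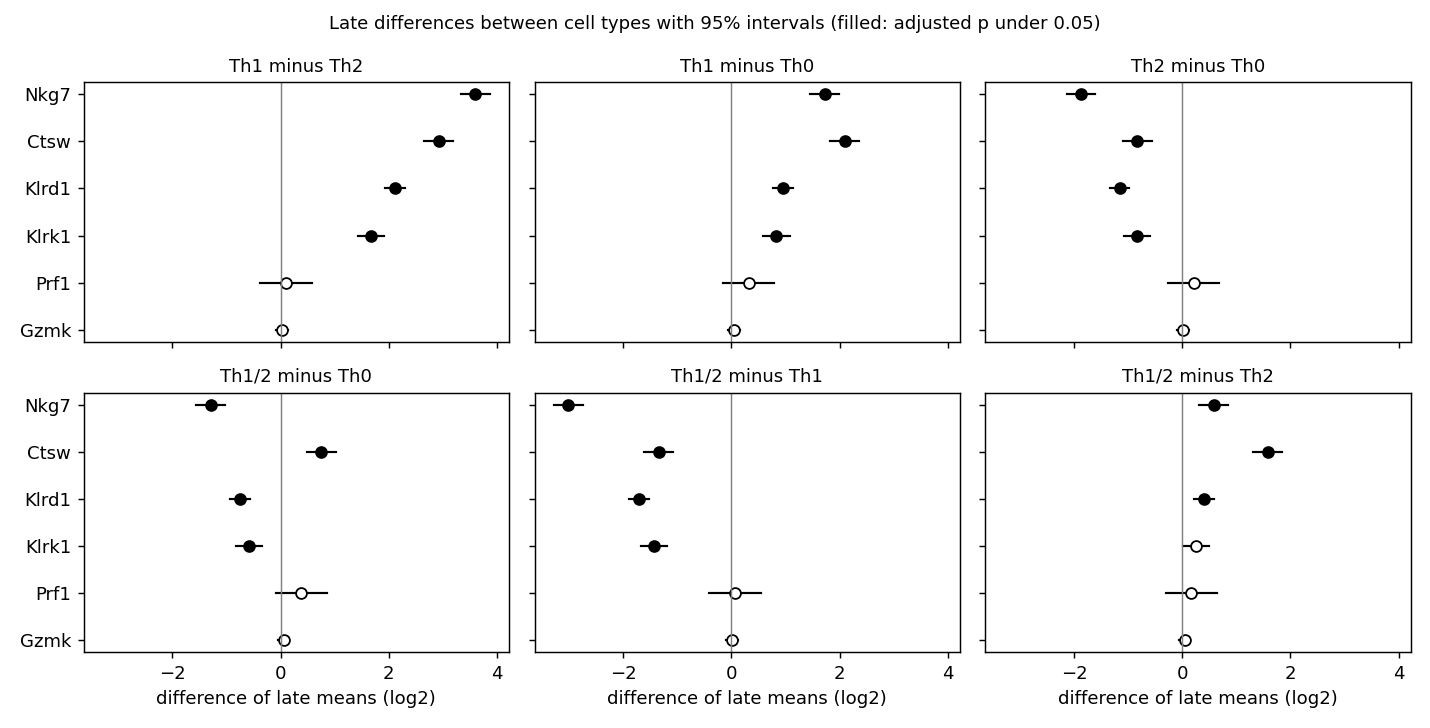
Late differences (48 to 120 h) in log2 intensity for the 6 tested members in the 6 comparisons of cell types, with 95% confidence intervals from limma. Filled points passed the test at an adjusted p under 0.05, and the vertical line is no difference. Nkg7 lies at 3.60 between Th1 and Th2 cells, and the intervals of Prf1 and Gzmk cross 0 in every comparison.

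In Th1/2 hybrid cells, which received IL-12 and IL-4 together, these 4 members stayed well below the Th1 level. Against Th1 cells, Nkg7 was lower, by −3.02 (adjusted p = 1.83e-21), Klrd1 by −1.71 (adjusted p = 5.2e-19), Klrk1 by −1.42 (adjusted p = 1.24e-12) and Ctsw by −1.34 (adjusted p = 8.73e-11). In this comparison 4 of 6 members and 8.41% of all genes were called lower. The late Th1/2 and Th1 arrays did not overlap for Nkg7 (highest Th1/2 array 8.21, lowest Th1 array 9.45) or for Klrk1 (7.14 and 7.22). They overlapped for Ctsw, and for Klrd1 only through the 48 h array of experiment 1, which read 7.10 in Th1 cells.

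Against Th0 cells, the hybrid cells were lower for 3 members and higher for 1, where 13.8% of all genes were called lower and 10.1% higher. Nkg7 was lower, by −1.29 (adjusted p = 1.26e-10), Klrd1 by −0.75 (adjusted p = 7.09e-09) and Klrk1 by −0.59 (adjusted p = 0.000162). Ctsw was higher by 0.75 (adjusted p = 1.88e-05), with 9.38 and 10.52 in Th1/2 cells at 120 h against 8.13 and 8.74 in Th0 cells. Ctsw was thus called in the opposite direction from the other 3 members in this comparison.

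Against Th2 cells, the hybrid cells were higher for 3 of 6 members, where 1.79% of all genes were called higher. Ctsw was higher by 1.58 (SE 0.13, adjusted p = 4.14e-12), Nkg7 by 0.58 (SE 0.13, adjusted p = 0.00312) and Klrd1 by 0.40 (SE 0.09, adjusted p = 0.00255), measured against Th2 arrays below the filter. The difference for Klrk1 was 0.25 (95% interval 0.0064 to 0.49, adjusted p = 0.376). With 1 late mean per cell type and experiment, Ctsw alone was called (adjusted p = 0.00959), and without the Th2 arrays of experiment 1 Ctsw was again the single call, with Nkg7 at 0.45 (adjusted p = 0.186) and Klrd1 at 0.39 (adjusted p = 0.0545). Nkg7 was also not called without the Th1/2 arrays of experiment 2, at 0.36. These leave-out fits compare unequal sets of experiments, so the shift between experiments enters them. Within experiments, the late Nkg7 means were 7.38 (Th1/2) and 6.88 (Th2) in experiment 1 and 7.82 and 7.15 in experiment 2. The summed linear intensity of 7 myeloid genes was 626 to 1790 in Th1/2 and 626 to 2470 in Th2 cells, against 614 to 670 in Th0 and 610 to 685 in Th1 cells. Within that list Adgre1 alone had higher late means in these cells, 8.02 in Th1/2 and 8.89 in Th2 against 6.56 in Th0 and 6.37 in Th1 cells. The late means of the other 6 (Lyz1, Lyz2, Cd14, Itgam, Csf1r and Itgax) differed by at most 0.129 on the log2 scale between cell types, and Lyz1 and Lyz2 lay under the filter in all 4. The part of other cells in the differences was not tested.

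The hybrid and Th2 cultures both received IL-4 and differ by IL-12 and the antibodies against IL-12 and IFN-γ, as Th1 and Th0 cultures do without IL-4, so the 2 differences can be set against each other. The difference between Th1/2 and Th2 cells was smaller than that between Th1 and Th0 cells for Nkg7, by −1.14 (SE 0.19, limma adjusted p = 9e-05), and for Klrd1, by −0.55 (SE 0.13, adjusted p = 0.00815), 2 of 6 members where 1.17% of all genes were called in that direction. Late Nkg7 in Th2 cells came near the filter, with a lowest value of 6.72 and a median of 6.96, so the size of −1.14 is uncertain. Late Klrd1 in Th2 cells lay below the filter, so its difference between Th1/2 and Th2 cells has only a bound. That difference is at least 0.12 on the log2 scale and has no upper limit, so both the size and the direction of −0.55 are uncertain. For Klrk1, also below the filter in Th2 cells, the same value was −0.59 (adjusted p = 0.0597) and for Ctsw −0.52 (adjusted p = 0.2). With experiment as a replicate block Klrk1 had adjusted p = 0.0356, and with experiment by time point as a block Klrk1 had adjusted p = 0.0102 and Ctsw adjusted p = 0.00693, which brings the count to 4. With 1 late mean per cell type and experiment neither Nkg7 (adjusted p = 0.694) nor Klrd1 (adjusted p = 0.616) was called. Klrd1 was also not called without the Th1 arrays of experiment 1, at −0.40, or without the Th1/2 arrays of experiment 2, at −0.54. Both fits compare unequal sets of experiments.

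In time, Klrd1 was the first member to part. Over 3 to 12 h it was below the Th0 level in Th2 cells, by −0.67 (adjusted p = 2.69e-05), and in Th1/2 cells, by −0.75 (adjusted p = 1.79e-06). It was the single member called in these early comparisons, where 0.89% and 1.51% of all genes were called lower. At 6 h Th0 cells read 7.87 and 8.19, Th1 cells 7.83 and 7.77, Th1/2 cells 6.78 and 6.98 and Th2 cells 7.11 and 7.24, so that both cultures with IL-4 were below both cultures without it. Early Th1 cells were above early Th2 cells by 0.47 (adjusted p = 0.00613) for Klrd1 and for no other member, where 0.536% of genes were called higher. Over 24 and 35 h the Klrd1 difference was 0.21 (adjusted p = 0.553), when the gene was near the filter in all cell types.

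Nkg7 parted next. Over 24 and 35 h it was the single member called between Th1 and Th2 cells, higher by 1.83 (adjusted p = 1.07e-09), where 1.75% of all genes were called higher. In the same window Th2 cells were below Th0 cells, by −1.16 (adjusted p = 2.36e-05, 1.66% of genes called lower), and Th1/2 cells by −0.74 (adjusted p = 0.00992, 2.27% of genes called lower). At single time points Nkg7 was higher in Th1 than in Th2 cells at all 6 times from 24 h on. Ctsw, Klrd1 and Klrk1 were so at the 4 times from 48 h on. The share of all genes called between Th1 and Th2 cells at single time points ran from 0.239% to 8.58%. At 48, 73, 96 and 120 h the Nkg7 difference between them was 3.45, 2.85, 3.89 and 4.20. Between Th1/2 and Th2 cells, Ctsw was called at the 3 times from 73 h on, with 2.67 at 120 h (adjusted p = 2.06e-09), and no other member at any time, where 0% to 1.16% of all genes were called.

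A gene was called kinetic in a cell type when its course passed limma's F-test against 0 h and 2 consecutive times showed a rise, or a fall, of 2-fold or more. Prf1, Ctsw and Klrd1 were kinetic in all 4 cell types. Nkg7 was kinetic in Th1, Th1/2 and Th2 cells, and Klrk1 in Th1 cells. Of the 6 members, 3 passed for Th0, 5 for Th1 and 4 for both Th1/2 and Th2, where 26.4%, 27.1%, 28.9% and 28.3% of all genes were kinetic in the order Th0, Th1, Th1/2 and Th2. At 3 h, 3 of 6 members (Nkg7, Ctsw and Klrd1) were already lower than at 0 h in each cell type, where 16.2%, 17.3%, 18.9% and 18.7% of genes were called lower in that order. Nkg7 took opposite directions. Against 0 h it was higher at 5 and lower at 1 of 9 times in Th1 cells, and lower at 8 of 9 times in both Th1/2 and Th2 cells. The fall was largest at 73 h in Th1/2 cells, at −1.40, and at 96 h in Th2 cells, at −1.93.

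From 24 and 35 h to 73, 96 and 120 h, 5 of 6 members rose in Th1 cells, where 21.3% of all genes rose. These were Ctsw by 2.51 (adjusted p = 3.51e-16), Klrd1 by 2.36 (adjusted p = 1.21e-20), Klrk1 by 1.34 (adjusted p = 8.03e-10), Nkg7 by 1.13 (adjusted p = 3.11e-07) and Prf1 by 0.86. In Th0 cells Klrd1 rose by 1.12, from arrays below the filter, and Klrk1 by 0.60 (2 of 6 members, 21.4% of genes). In Th1/2 cells Prf1 rose by 1.00, Ctsw by 0.79 and Klrd1, from arrays below the filter, by 0.53, and Nkg7 fell by 0.54, where 22% of genes rose and 24.3% fell. In Th2 cells Prf1 rose by 0.91, Nkg7 fell by 0.69 and Ctsw fell by 0.85, where 22.8% of genes rose and 25.6% fell. Gzmk was the tested member that did not pass in Th1 cells.

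Over the 16 late condition means the Pearson correlation was 0.91 between Klrd1 and Klrk1, 0.78 between Nkg7 and Klrd1 and 0.75 between Nkg7 and Klrk1. For Ctsw it was 0.74 with Klrd1, 0.66 with Nkg7 and 0.55 with Klrk1. For Prf1 it was 0.50 with Ctsw, 0.026 with Klrd1, −0.00066 with Nkg7 and −0.17 with Klrk1. Over all 37 condition means, the genes with the courses most like the members were Il18r1 (0.91), Nod1 (0.89) and Ms4a4b (0.89) for Klrd1, St3gal6 (0.91), Dock9 (0.82) and Il18r1 (0.80) for Ctsw, and Snx10 (0.83), Galnt3 (0.80) and Lyrm1 (0.80) for Nkg7. They were Ifi202b (0.96), Tmem106a (0.89) and Trim30d (0.88) for Klrk1, and Erich5 (0.97), Zfp36 (0.95) and Thrap3 (0.93) for Prf1. These correlations are descriptions. Their points share arrays, experiments and time points.

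Of the transcription factors of cytotoxic cells, 8 of the 9 tested exceeded their Th2 level in late Th1 cells and 1 was below it, where 10.5% of all genes were called higher and 9.97% lower. Their median difference was 0.86. Tbx21, which encodes T-bet, had late medians of 7.60 (Th0), 10.47 (Th1), 10.03 (Th1/2) and 6.91 (Th2). Th1 cells were above Th2 cells by 3.29 (adjusted p = 5.35e-18), and Th1/2 cells were above Th2 cells by 2.94 (adjusted p = 2.1e-15), while Th1/2 and Th1 cells differed by −0.34 (adjusted p = 0.268). Nkg7, Klrd1 and Klrk1 did not share the order of Tbx21. The hybrid cells were near Th1 cells for Tbx21 and below Th0 cells for these 3 members. Ctsw had the same rank order as Tbx21, with late means of 9.97 in Th1, 8.63 in Th1/2, 7.88 in Th0 and 7.05 in Th2 cells. Unlike Tbx21, Ctsw was called lower in the hybrid cells than in Th1 cells. The part of T-bet in these levels was not tested. Eomes, a related T-box factor, was higher in Th1 than in Th2 cells by 1.98 (adjusted p = 2.98e-08), and Th1/2 cells were below Th1 cells, by −1.84 (adjusted p = 2.01e-07). Its late medians were 8.25 (Th0), 8.67 (Th1), 6.81 (Th1/2) and 6.55 (Th2). Stat4, which transmits the IL-12 signal, was higher in Th1 than in Th2 cells by 0.86 (adjusted p = 1.85e-10). Tox and Id2 differed most between Th1/2 and Th0 cells, by −1.82 (adjusted p = 4.53e-19) and 1.81 (adjusted p = 4.82e-14). The late medians of Tox were 11.11 (Th0), 10.28 (Th1), 9.09 (Th1/2) and 9.53 (Th2). Those of Id2 were 10.19, 11.36, 11.85 and 11.48 in the same order.

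Of the cytokine receptor genes, 3 of 8 exceeded their Th2 level in late Th1 cells and none was below it, against 10.5% and 9.97% of all genes. Il18r1, a chain of the IL-18 receptor, was higher by 4.36 (adjusted p = 9.24e-26), and Th1/2 cells were below Th1 cells, by −3.76 (adjusted p = 3.2e-23). Il12rb2, the signalling chain of the IL-12 receptor, was higher in Th1 than in Th2 cells by 3.05 (adjusted p = 4.52e-23) and in Th1/2 than in Th2 cells by 1.76 (adjusted p = 2.19e-14). The late median of Il18r1 was 7.42 in the hybrid cells, near that of Th2 cells at 6.84 and far from that of Th1 cells at 11.77.

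**Figure D4:**
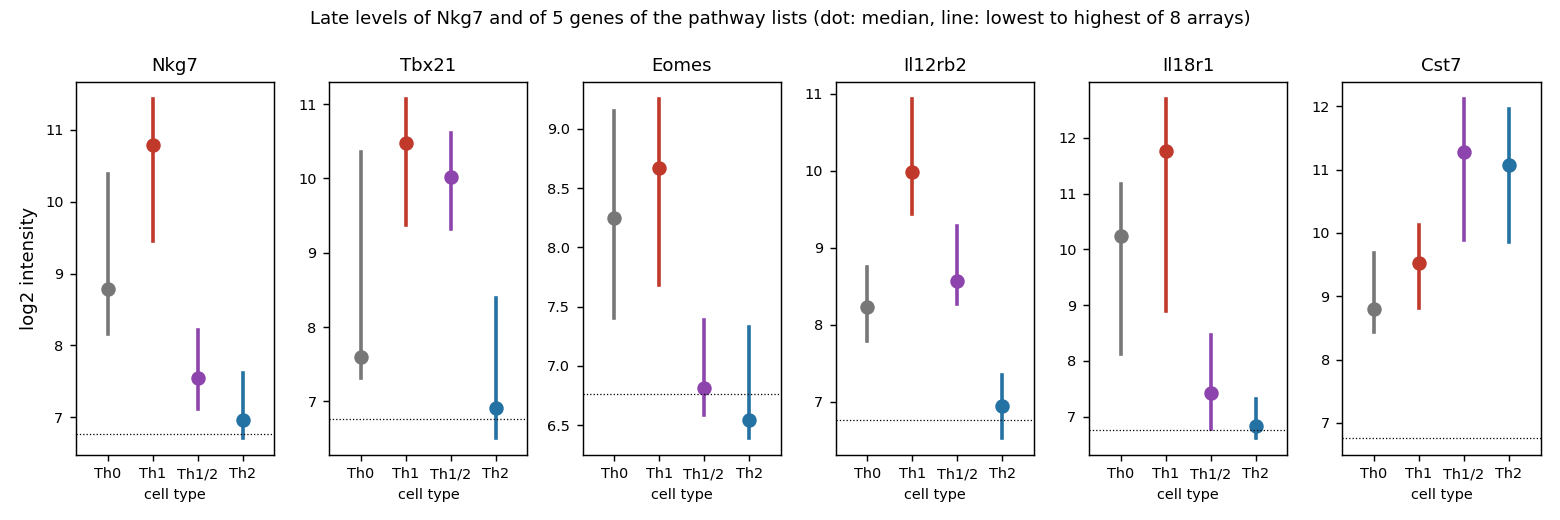
Late log2 intensity (vertical axis) of Nkg7, Tbx21, Eomes, Il12rb2, Il18r1 and Cst7 by cell type (horizontal axis). Dots are medians and lines run from the lowest to the highest of 8 arrays, with the low-signal filter dotted. In Th1/2 cells the Tbx21 median of 10.03 is near that of Th1 cells, while the Nkg7 median of 7.55 is below the Th0 median of 8.79.

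Of the granule load, maturation and inhibitor genes, 2 of 7 tested were higher and 3 lower when late Th1 was compared with late Th2, and of the exocytosis genes 3 of 10 were higher and 1 was lower, beside 10.5% and 9.97% of all genes. Serpinb6a, a serpin that inhibits proteases, was higher in Th1 than in Th2 cells by 1.43 (adjusted p = 1.92e-15). Cst7, which encodes cystatin F, an inhibitor of cathepsins, was lower, by −1.36 (adjusted p = 1.82e-11), and against Th0 cells it was higher in Th2 cells by 1.99 and in Th1/2 cells by 2.16. Srgn, the proteoglycan core of granules, was also below its Th2 level, by −0.72 (adjusted p = 0.00848). Rab27a, a GTPase that docks granules, was higher in Th1 than in Th2 cells by 0.26 (adjusted p = 0.0223), and Sytl2, its effector, by 0.81 (adjusted p = 0.00873). Against late Th0 cells, Sytl2 differed by −0.41 in Th1 cells (adjusted p = 0.439) and by −1.22 in Th2 cells (adjusted p = 6.81e-05).

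In late Th1 against late Th2 cells 10.5% of all genes were called higher and 9.97% lower, the background for these counts. Of the death ligands and receptors, 4 of 6 exceeded their Th2 level in late Th1 cells and none was below it, among them Fas by 1.29 (adjusted p = 2.26e-11) and its ligand Fasl by 1.09 (adjusted p = 0.00175). Of 26 other killer-cell receptor genes on the array, 13 were above the filter, and of these 3 were higher and 1 was lower. Slamf7, an activating receptor, was higher by 1.16 (adjusted p = 7.81e-12) and Tigit, an inhibitory one, was lower, by −0.58 (adjusted p = 0.000157). Of the receptor adaptors, 1 of 3 was higher, Hcst by 0.54 (adjusted p = 2.03e-06), which encodes the adaptor of NKG2D. Of the ligands of killer receptors, 1 of 2 tested was higher, H2-T23 by 0.92 (adjusted p = 2.19e-09), which encodes the non-classical MHC molecule bound by CD94 with its NKG2 chain. Between late Th1 and Th0 cells, none of the 6 death genes or the 2 ligands was called, where 5.8% of all genes were. Fas differed by 0.12 (adjusted p = 0.76) and Fasl by 0.22 (adjusted p = 0.801) there. In late Th2 cells 4 of the 6 and 1 of the 2 were below Th0 cells, where 14% of all genes were.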

How the data were processed

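The values are probe intensities of 74 Illumina Mouse Sentrix-6 arrays that the authors deposited, normalized between arrays, on a linear scale (55.8 to 69892, with array medians from 107 to 111). Background correction, quantile normalization and log2 transformation are described in the methods, with software not given in the sources used. Log2 was taken and no second normalization was run. No column was left unused (0).

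Of 45135 probes, 34773 carry 1 gene symbol, 18 several and 10344 none, and those with 1 symbol were used. A gene is represented by its probe with the highest mean, and genes were tested where that probe was above 6.77 (the median of all log2 values) in at least 1 condition mean. Differences were tested in R 4.3.3 with limma 3.58.1 on 1 mean per condition, without a block, with Benjamini-Hochberg adjustment over 13817 genes and a threshold of 0.05. All p-values in the text are limma's and are two-sided. The number of arrays limits the precision, with 2 per condition. The kinetic rule was adapted from the methods, which counted increases and used maSigPro. Here a rise or a fall of 2-fold at 2 consecutive times and limma's F-test were required. The steps were tested on simulated data.

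The members, the other gene lists and the tests were chosen with earlier results of these data known. Named genes are all members, from the other lists those that passed the test at 2-fold in a late comparison (at most 4 per list, the largest differences), and the 3 genes with the highest correlation to each member whose condition means had an SD of at least 0.5. Stat4, Rab27a, Hcst and H2-T23 were named after their values were seen.

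Experiment numbers pair the cultures because the study ran 2 independent experiments. As a check, residuals were correlated between conditions. Their median was 0.536 for the 54 pairs that share a time point (lowest 0.011) and 0.106 for all 630 pairs. Alternatives were normexp background correction (offset 50) with quantile normalization, no filter, the second-brightest probe, eBayes with trend and robust, 2 replicate blocks, no arrays that stood apart, a 73 to 120 h window, 1 late mean per cell type and experiment, a 1.5-fold kinetic criterion, and leaving out each experiment of each cell type. Promoter sequences are RefSeq entries of build GRCm38.p6, and no build is named for the array annotation.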

Additional observations from a re-analysis of the deposited data

Results flagged for a closer look

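The late change from Th2 to Th1/2 cells and the late change from Th0 to Th1 cells differed for 2 members by a test of that difference in limma. For Nkg7 the difference of the changes was −1.14 (SE 0.19, adjusted p = 9e-05): Th1/2 cells exceeded Th2 cells by 0.58 and Th1 cells exceeded Th0 cells by 1.72. It was below 0 in both experiments, with −1.29 and −0.99. For Klrd1 it was −0.55 (SE 0.13, adjusted p = 0.00815), from 0.40 and 0.96, and −0.70 and −0.41 in the 2 experiments. All late Th2 arrays of Klrd1 lay below the filter (6.32 to 6.58), so the change from Th2 to Th1/2 cells has only a bound. That change is at least 0.12 and has no upper limit, so both the size and the direction of −0.55 are uncertain. The late Th2 arrays of Nkg7 came near the filter, with a lowest value of 6.72 and a median of 6.96, so −1.14 is uncertain as well. With 1 late mean per cell type and experiment neither was called (adjusted p = 0.694 for Nkg7 and 0.616 for Klrd1). Il18r1, a gene whose course was close to that of Klrd1, had −0.75 (adjusted p = 0.0405).

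No outliers were sought among the members, since each condition has 2 arrays.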

How the results depend on the processing

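Of 135 counts of called members recomputed under 18 alternatives, 130 stayed within 1.5 times the reported count. The count between Th1/2 and Th2 cells fell from 3 to 1 with 1 late mean per cell type and experiment, and ranged from 1 to 3 when an experiment of a cell type was left out (1 without Th2 replicate 1). The count for the difference of the 2 changes went from 2 to 4 with experiment by time point as a replicate block and to 0 with 1 late mean per cell type and experiment, and ranged from 1 to 3 when an experiment was left out (1 without Th1 replicate 1). With experiment alone as a replicate block, Klrk1 gained a call in the difference of changes (−0.59, adjusted p = 0.0356), and no other late call of a member changed. The causes were not tested.

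Of 570 differences of single members, 512 kept their direction and side of the threshold, 12 lost and 12 gained a call, and 34 changed sign, all 34 of Gzmk or Prf1. On the second Prf1 probe, differences from Th0 cells were −0.16 in Th2 and −0.079 in Th1/2 cells, and Th1/2 and Th1 cells differed by −0.27. For Gzmk, the difference of changes was 0.0022 with normexp and quantile normalization. Without the 2 arrays that stood apart it was 0.018, and the difference between Th2 and Th0 cells was −0.0059. In the 73 to 120 h window Gzmk gave 0.075 for the difference of changes, −0.0070 for Th1 and −0.042 for Th2 against Th0 cells.

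Leaving out an experiment of a cell type, without a block, lets the shift between experiments enter a difference. It gave these ranges. For Prf1 they were −0.050 to 0.68 (Th1 against Th0), −0.15 to 0.58 (Th2 against Th0), −0.043 to 0.80 (Th1/2 against Th0), −0.21 to 0.42 (Th1 against Th2), −0.36 to 0.49 (Th1/2 against Th1), −0.26 to 0.59 (Th1/2 against Th2) and −0.57 to 0.27 (difference of changes). For Gzmk they were −0.029 to 0.055, −0.021 to 0.13, −0.011 to 0.072, −0.064 to 0.089, −0.034 to 0.12 and −0.078 to 0.076, in the same order without Th1 against Th0. The Prf1 difference between Th1/2 and Th0 cells was 0.75 without Th0 replicate 1 and 0.80 without Th1/2 replicate 2. Within experiments, the late Prf1 means were 11.79 (Th1/2) and 11.35 (Th0) in experiment 1 and 10.94 and 10.62 in experiment 2. Experiment 1 read higher in both cell types, and this shift enters 0.75 and 0.80. Where an arm was left with 1 array per time point, that array was assumed to vary like the other groups. Signal near background limits Gzmb, Gzmc, Gzmk and Klrc1, for which no difference between cultures could be measured well.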

Other observations

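Single markers of other cell types moved with the culture conditions. Cd79b, a B cell receptor chain, had late means of 7.48 (Th0), 7.51 (Th1), 8.45 (Th1/2) and 8.35 (Th2), whereas those of the other 3 B cell genes (Ms4a1, Pax5 and Blnk) differed by at most 0.142 between cell types. Kit, a mast cell and progenitor receptor, had late means of 7.49, 8.16, 6.85 and 6.74 in the same order, and those of the other 5 mast cell and basophil genes (Mcpt8, Cpa3, Fcer1a, Mcpt1 and Mcpt4) differed by at most 0.118. Lyz1 read 11.12 and 11.82 in the naive cells of the 2 experiments and had late means from 6.43 to 6.56.

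Cd8a and Cd8b1 gave different pictures, since Cd8a was below the filter on every array and Cd8b1 had late means from 12.06 to 12.21. Tyrobp, an adaptor of NK and myeloid cells, read 7.77 and 8.84 at 0 h and had late means from 6.64 to 6.73.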
